A study of Arabidopsis thaliana with 4 samples.

Results

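The 4 Arabidopsis thaliana genes described here, AT3G53980, AT1G62510, AT2G37870 and AT4G33550, encode proteins of the lipid-transfer, bifunctional inhibitor and 2S albumin family. They were chosen by their measured values, as family genes with a high polysomal to non-polysomal ratio under dehydration or a large gain under it, so their values are given as a description. Each has 1 probe set on the ATH1 array that the platform annotation assigns to it alone, and they are 4 of 5959 named loci that passed the filter on dim signals. RNA was hybridized to 4 arrays, 1 for each of dehydration-stressed polysomal, dehydration-stressed non-polysomal, non-stress polysomal and non-stress non-polysomal RNA. Polysomal RNA is messenger RNA carrying more than 1 ribosome, and non-polysomal RNA is free or carries a single ribosome. The labels name no accession line, tissue, age or length of dehydration. The comparisons ask which transcripts were more or less loaded with ribosomes in each condition and which ones differed with water loss.

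Proteins of this family are small, are directed into the secretory pathway and are held together by a conserved pattern of 8 cysteines. In the lipid-transfer proteins the fold encloses a hydrophobic tunnel that can bind a fatty acid or a related lipid. Members have been linked to the building of cuticle and suberin, to defence signalling and, for the 2S albumins, to storage in seeds. AT1G62510 belongs to the hybrid proline-rich members that resemble EARLI1, in which a proline-rich stretch precedes the cysteine domain. AT3G53980, AT2G37870 and AT4G33550 are small secreted members for which no individual role is given here.

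Median signals, taken over 22810 probe sets, were 186 for dehydration polysomal, 222 for dehydration non-polysomal, 193 for non-stress polysomal and 250 for non-stress non-polysomal RNA. Signals under a lower limit of 69.9 were raised to it, so a difference resting on such a signal is a bound, and ranks among loci compare signals so raised. The highest signal of the 27 probe sets for unspiked bacterial sequences was 70.8. Because each group had 1 array, no difference was tested, there was no replicate error, and the number of arrays limits the precision. As a guide to measurement error, the log2 difference of the brightest and the next probe set of the same gene (46 loci) differed with an SD of 0.507 for the polysome ratio under dehydration and 0.600 without stress. That SD was 0.435 for the effect of dehydration in polysomal RNA, 0.480 in non-polysomal RNA and 0.596 for the change in ratio. Equal scaling of the arrays makes a polysome ratio relative to the average transcript, and it does not give the fraction of a transcript that sat on polysomes. Both dehydration arrays were hybridized together on 1 fluidics station and both non-stress arrays together on another, so hybridization batch and dehydration cannot be told apart. Fewer cells expressing a gene and less of its RNA per cell cannot be told apart either.

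AT3G53980 gave a signal of 3010 in dehydration polysomal and 482 in dehydration non-polysomal RNA, against 34.9 in non-stress polysomal and 402 in non-stress non-polysomal RNA. The transcript was thus near level in the non-polysomal fraction of both conditions, and in polysomal RNA it was detected above the limit only under dehydration. AT4G33550 gave 1285 in dehydration polysomal and 356 in dehydration non-polysomal RNA, against 99.7 in non-stress polysomal and 208 in non-stress non-polysomal RNA. Its lowest signal, in non-stress polysomal RNA, lay above the highest unspiked control but close to it.

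AT2G37870 had signals of 4181 in dehydration polysomal and 1743 in dehydration non-polysomal RNA, against 180 in non-stress polysomal and 315 in non-stress non-polysomal RNA. Both of its dehydration signals lay above both of its non-stress signals. AT1G62510 had signals of 7585 in dehydration polysomal and 1173 in dehydration non-polysomal RNA, against 1066 in non-stress polysomal and 359 in non-stress non-polysomal RNA. For this proline-rich member the non-stress polysomal signal came close to the dehydration non-polysomal one. All 4 genes shared the same highest array, dehydration polysomal, followed by dehydration non-polysomal RNA. The lowest array was non-stress polysomal for 3 genes, an order found for 416 of 11373 measured probe sets (3.66%), and non-stress non-polysomal for AT1G62510, an order found for 665 (5.85%).

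**Figure D1:**
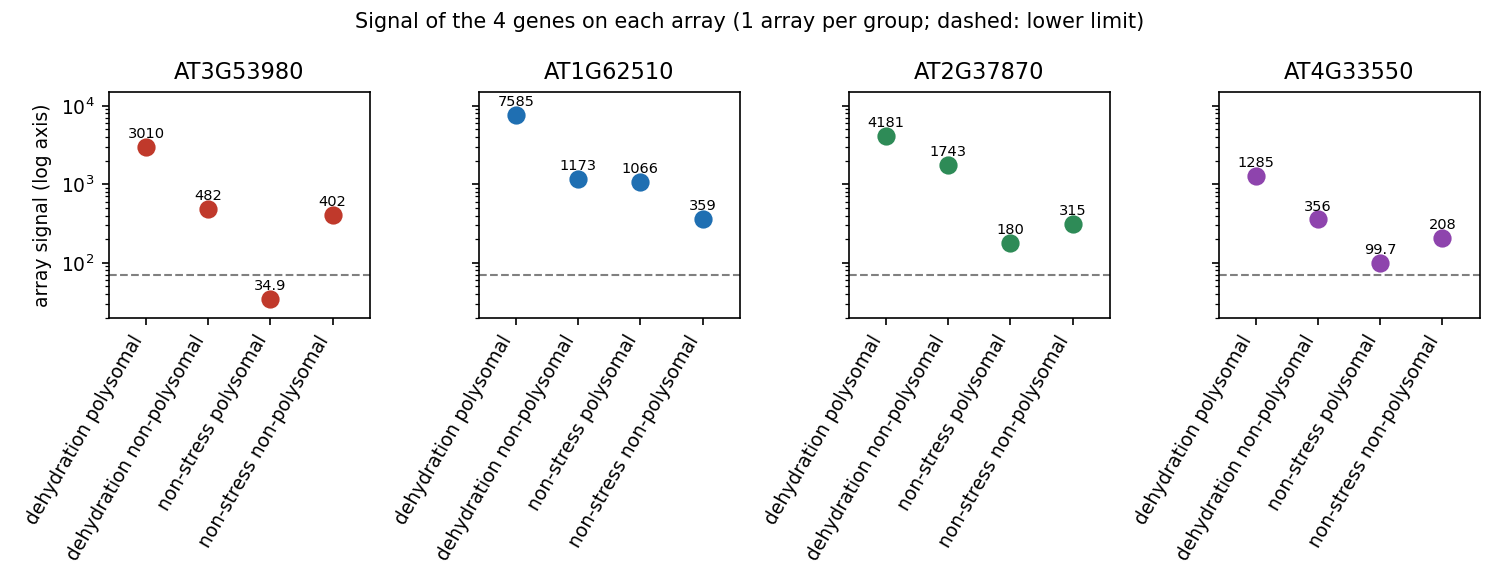
Array signal (log axis) of each gene on the 4 arrays, 1 point per array, with the lower limit of 69.9 as a dashed line. The dehydration polysomal point is the highest for every gene, from 1285 for AT4G33550 to 7585 for AT1G62510, and the non-stress polysomal point of AT3G53980 (34.9) is the only one under the line.

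Under dehydration all 4 transcripts were richer in polysomal than in non-polysomal RNA. The ratio was part of how the genes were chosen, and 9.06% of measured probe sets passed 2-fold upward in this comparison. AT1G62510 had a log2 ratio of 2.69, a 6.47-fold higher polysomal signal, which was the sixth highest of the 5959 named loci. AT3G53980 followed directly at 2.64, or 6.24-fold. AT4G33550 stood at 1.85 (3.61-fold, rank 54) and AT2G37870 at 1.26 (2.40-fold, rank 250). The gap between AT1G62510 and AT3G53980 is smaller than the 0.507 found between probe sets of the same gene, and the other gaps are wider than it. That SD comes from the same arrays and holds no variation between samples, so it does not settle the order of the genes.

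Without stress the polysome ratios of the same genes lay on both sides of 0. AT1G62510 was already polysome-rich, with a log2 ratio of 1.57 (2.97-fold higher, rank 98 from the top). AT2G37870 had a ratio of -0.81, which is 1.75-fold lower in polysomal than in non-polysomal RNA. With median (-0.44), quantile (-0.51) or hybridization control scaling (-0.33) that ratio lay closer to 0 than the 0.600 between probe sets of 1 gene. AT4G33550 was at -1.06 (2.09-fold lower), rank 668 from the bottom. AT3G53980 was at -2.52 at most, or at least 5.75-fold lower, near the bottom of the named loci, where its place depends on the limit (rank 53 from the bottom, and 11 with no limit). Of the 4 genes 1 was at least 2-fold higher, as were 8.56% of all measured probe sets, and 2 were at least 2-fold lower, as were 11.9%. The 2-fold call for AT4G33550 ended under median scaling (-0.69), quantile normalization (-0.61), hybridization control scaling (-0.59) and with the lower limit at percentile 40 (-0.61 at most).

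The ratio therefore changed sign between the conditions for AT3G53980, AT2G37870 and AT4G33550. It went from below 0 without stress to above 0 under dehydration, as it did for 1143 measured probe sets (10.1%). AT3G53980 and AT4G33550 were among the 15 measured probe sets (0.132%) whose polysomal signal was 2-fold or more above the non-polysomal one under dehydration and 2-fold or more below it without stress. The non-stress ratio of AT4G33550 did not reach 2-fold under median (-0.69), quantile (-0.61) or hybridization control scaling (-0.59). With the lower limit at percentile 40 it was -0.61 at most, so the place of AT4G33550 among the 15 depends on the processing. The gain was part of the choice of genes, and 2.8% of all measured ones had a ratio at least 2-fold higher under dehydration than without stress. For AT3G53980 the log2 change was at least 5.17, a bound that ranked first among named loci with the limit and second without it. It was 2.91 for AT4G33550 (rank 8) and 2.07 for AT2G37870 (rank 15). AT1G62510, whose ratio was high in both conditions, had a change of 1.12 (2.18-fold, rank 101). Its change fell below 2-fold under quantile normalization (0.91) and hybridization control scaling (0.75).

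**Figure D2:**
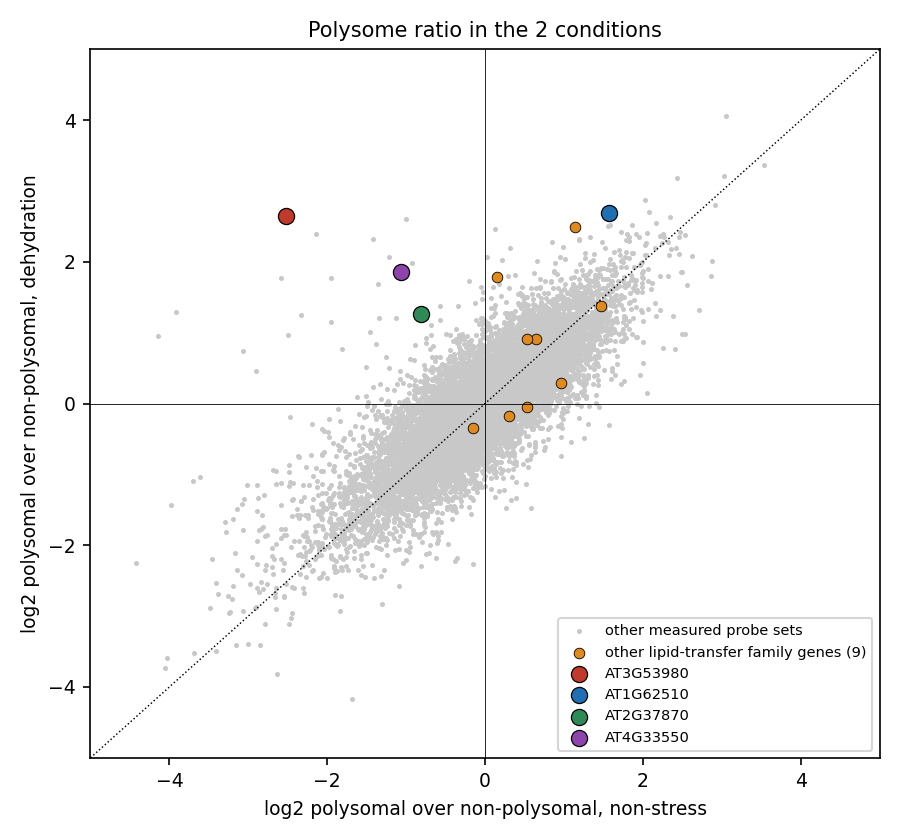
Log2 polysomal over non-polysomal signal under dehydration (vertical axis) against non-stress (horizontal axis) for 11373 measured probe sets, with the 4 genes and the 9 other measured family genes marked and equality as a dotted line. AT3G53980, AT4G33550 and AT2G37870 lie left of 0 and above 0, while AT1G62510 is positive on both axes at 1.57 and 2.69.

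The dehydration effect in polysomal RNA was large for all 4 transcripts, which lay among the 31 named loci with the highest values. All 4 passed 2-fold upward, as did 6.36% of measured probe sets, but this comparison shares an array with the ratio used to choose the genes. For AT3G53980 the log2 difference was at least 5.43, a signal at least 43.0 times as high. AT2G37870 was 4.54 higher (23.2-fold), AT4G33550 3.69 higher (12.9-fold) and AT1G62510 2.83 higher (7.11-fold). Each step in this order exceeded the 0.435 between probe sets of the same gene, but the first rests on a bound. That SD holds no variation between samples, so it does not settle this order either. With the lower limit at percentile 40, AT3G53980 was at least 4.46 higher, beside 4.54 for AT2G37870.

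In non-polysomal RNA the order was different. AT2G37870 was highest, at 2.47 (5.53-fold, rank 19), and AT1G62510 next at 1.71 (3.26-fold, rank 52). AT4G33550 was 0.77 higher (1.71-fold, rank 433) and AT3G53980 0.26 higher (1.20-fold, rank 1704), the last within the 0.480 seen between probe sets of 1 gene. Of the 4 genes 2 were at least 2-fold higher, as were 4.32% of all measured probe sets. AT4G33550 passed 2-fold under hybridization control scaling (1.08) and just reached it under quantile normalization.

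With the arrays scaled to an equal trimmed mean, the 4 genes thus fell into 2 pairs by whether the non-polysomal difference reached 2-fold. AT1G62510 and AT2G37870 were at least 2-fold higher in both fractions under dehydration, a pattern of 340 measured probe sets (2.99%). AT3G53980 and AT4G33550 were at least 2-fold higher in polysomal RNA with less than a 2-fold difference in non-polysomal RNA, a pattern of 383 (3.37%). The place of AT4G33550 depended on the scaling. Its non-polysomal difference stayed under 2-fold with median scaling (0.95). It passed 2-fold under hybridization control scaling (1.08) and just reached it under quantile normalization, which put AT4G33550 with AT1G62510 and AT2G37870. In AT2G37870 the polysomal difference exceeded the non-polysomal one by 2.07 and in AT1G62510 by 1.12 on the log2 scale, so these transcripts also differed more on polysomes than off them.

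**Figure D3:**
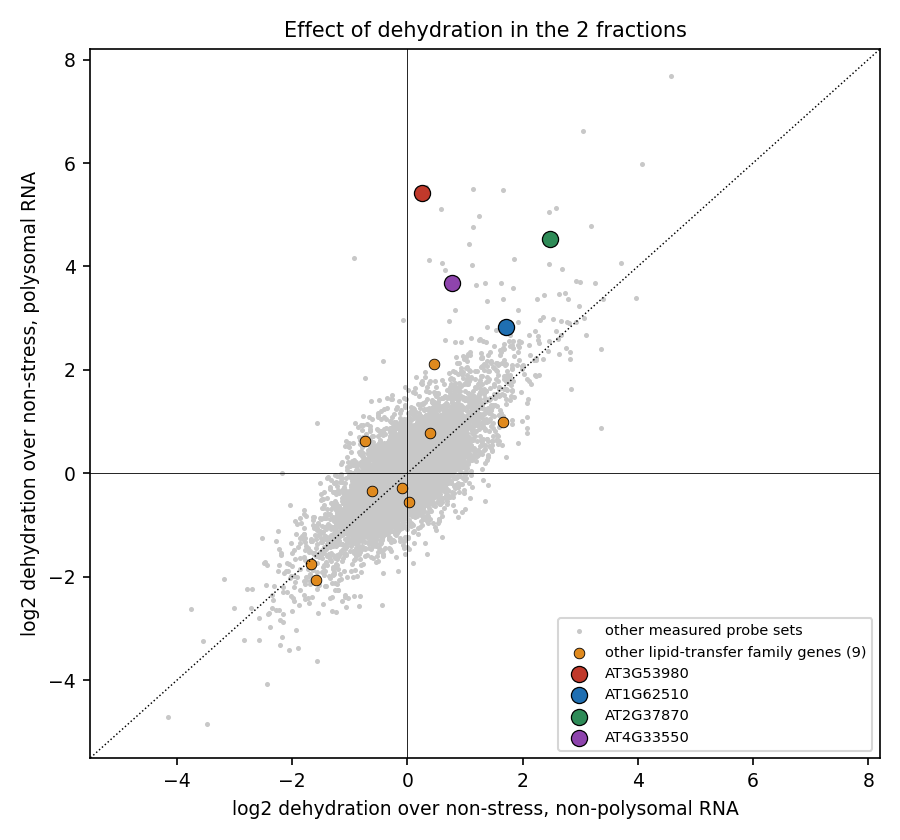
Log2 dehydration over non-stress signal in polysomal RNA (vertical axis) against non-polysomal RNA (horizontal axis) for 11373 measured probe sets, marked as in the plot of ratios. All 4 genes lie above the dotted line of equality, AT3G53980 farthest at 0.26 on the horizontal and at least 5.43 on the vertical axis.

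The loci whose pattern over the 4 arrays was most like each gene were found by the Euclidean distance between log2 signals centred on their mean, over all 5959 named loci. Closest to AT3G53980 was AT3G02480, a late embryogenesis abundant (LEA) family gene, at a distance of 0.33, where the median locus lay at 3.94. Its signals were 2431 in dehydration polysomal and 465 in dehydration non-polysomal RNA, against 7.6 in non-stress polysomal and 308 in non-stress non-polysomal RNA. AT3G17520, another LEA family gene (1.08), and the expansin-like gene EXLB1 (1.15) came next. Both AT3G53980 and AT3G02480 were under the limit in non-stress polysomal RNA, so their closeness rests on 3 measured arrays and 1 shared bound. With no limit AT3G02480 lay at 1.71 from AT3G53980 (rank 3) and AT3G17520, also under the limit on that array, at 1.29 (rank 2).

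EXLB1 was also the closest locus to AT4G33550, at 0.20, followed by the dehydrin LTI30 (0.38) and AT5G01300 (0.50), where the median locus was at 2.83. LTI30 had signals of 3945 in dehydration polysomal and 996 in dehydration non-polysomal RNA, against 240 in non-stress polysomal and 455 in non-stress non-polysomal RNA. For AT1G62510 the closest were AT4G14090, an anthocyanin glucosyltransferase gene (0.50), the dehydrin COR47 (0.63) and AT5G27280 (1.08). COR47 shared its rich polysomal signal in both conditions, with a log2 ratio of 2.11 under dehydration and 1.38 without stress. For AT2G37870 they were AT5G50360 (0.52), AT4G29780 (0.77) and the ubiquitin ligase gene PUB19 (0.91). AT5G50360 was under the limit in non-stress polysomal RNA, and with no limit its distance was 2.05, rank 67, leaving AT4G29780 and PUB19 nearest. PUB19 was 3.72 higher in polysomal and 2.93 higher in non-polysomal RNA under dehydration, but its polysome ratio was -0.01 under dehydration, where that of AT2G37870 was 1.26.

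The 4 genes were not each other's closest. AT2G37870 and AT4G33550, both measured on every array, were 1.35 apart. AT2G37870 was 2.32 from AT1G62510, with which it shared the 2-fold rise in both fractions. AT3G53980 was 1.33 from AT4G33550 and 2.95 from AT1G62510, or 2.14 and 3.76 with no limit. With 4 arrays these distances describe the plotted shapes and carry no error.

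**Figure D4:**
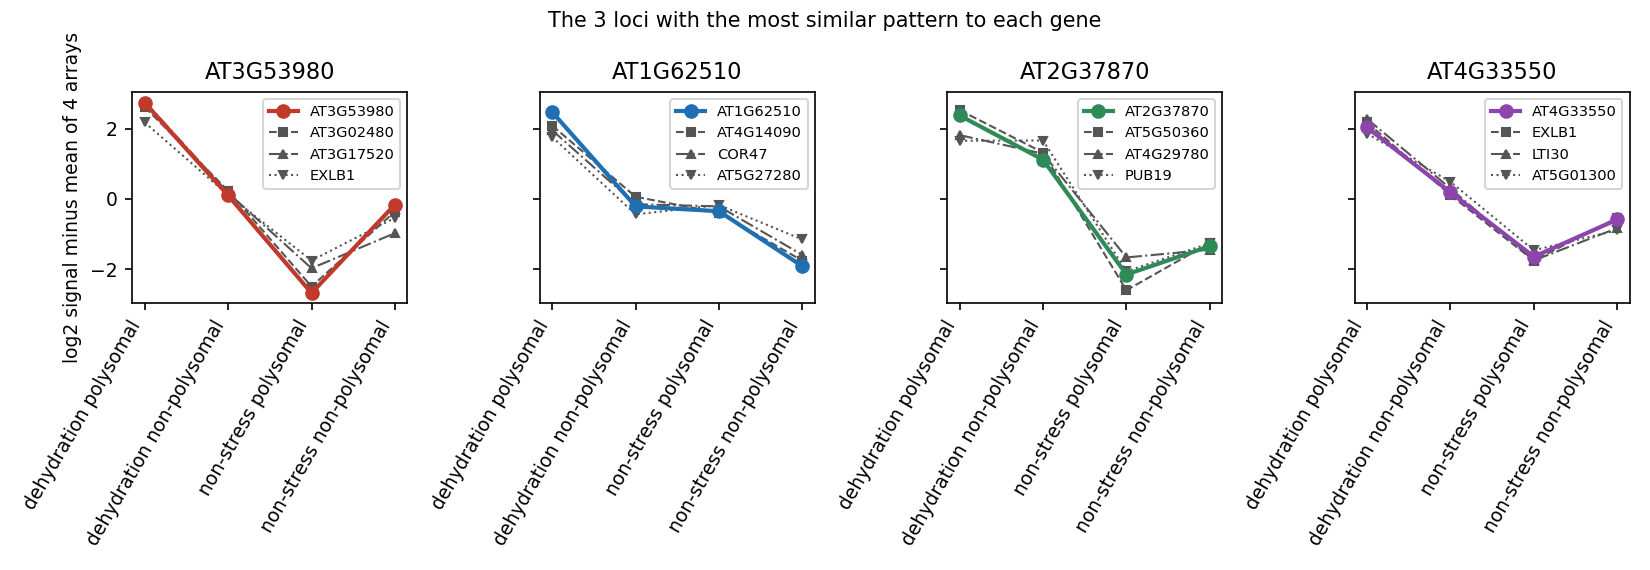
Log2 signal minus its mean over the 4 arrays, floored at the lower limit, for each gene (coloured) and the 3 loci with the most similar pattern (grey); lines join the arrays as a guide to the eye. EXLB1 nearly overlies AT4G33550 (distance 0.20), and the grey lines of AT1G62510 alone do not have their lowest point in non-stress polysomal RNA.

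The rest of the family was described from a list of 113 loci. A probe set naming 1 gene was present for 49 of them, and 13 of these passed the filter, the 4 genes and 9 others. The annotation used named no gene for 8730 of the 22810 probe sets, so a locus without a named probe set is not thereby absent from the array. The 36 that did not pass included 6 under the limit on all 4 arrays, and 23 were under it on at least 1. None of the 5 seed storage 2S albumin genes was among the 49. As the filter is on the mean signal, a gene that is bright in 1 condition only can pass through it, so the 13 are not the family as a whole.

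The 9 other measured genes lay on both sides of 0 in the effect of dehydration. In polysomal RNA 1 was 2-fold higher or more (6.36% of all measured probe sets were) and 2 were 2-fold lower or more (5.58%), with a median log2 difference of -0.28 beside 0.00 over all measured probe sets. In non-polysomal RNA 1 was 2-fold higher or more (4.32% of all were) and 2 were 2-fold lower or more (4.56%), with a median of -0.09 beside -0.02. For the change in ratio 2 of the 9 were at least 2-fold higher (2.8% of all were) and none was 2-fold lower (1.62%), with a median of -0.09 beside 0.01. Their polysome ratios lay to the high side: under dehydration 3 of 9 were at least 2-fold higher (9.06% of all were) and none 2-fold lower (11.6%), with a median of 0.90 beside -0.04, and without stress 2 of 9 were at least 2-fold higher (8.56%) and none 2-fold lower (11.9%), with a median of 0.54 beside -0.06.

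AT1G48750, a secreted lipid-transfer protein gene, came nearest to the 4. Its signal was 2010 in dehydration polysomal and 580 in dehydration non-polysomal RNA, against 467 in non-stress polysomal and 421 in non-stress non-polysomal RNA. It was 2.10 higher under dehydration in polysomal and 0.46 higher in non-polysomal RNA, and its polysome ratio was 1.79 under dehydration and 0.15 without stress. The related AT3G18280 had the highest dehydration ratio of the 9, 2.49, and 1.14 without stress. Its change in ratio of 1.35 combined a polysomal difference of 0.62 with a non-polysomal difference of -0.73.

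Opposite values came from AT5G48490, which encodes a protein like DIR1, a lipid-transfer protein of systemic resistance, and from the proline-rich gene AT2G10940. AT5G48490 had signals of 2268 in dehydration polysomal and 2566 in dehydration non-polysomal RNA, against 9418 in non-stress polysomal and 7666 in non-stress non-polysomal RNA, log2 differences of -2.05 in polysomal and -1.58 in non-polysomal RNA. AT2G10940 was lower under dehydration by nearly the same amount in either fraction, -1.76 and -1.67, and its polysome ratio was 1.37 under dehydration and 1.47 without stress. Both genes were therefore lower under dehydration than without stress on and off polysomes. The change in ratio was -0.09 for AT2G10940. For AT5G48490 it was -0.48, from 0.30 without stress to -0.18 under dehydration. Both changes were smaller than the 0.596 between probe sets of the same gene.

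AT5G55450 was 0.99 higher in polysomal and 1.66 higher in non-polysomal RNA under dehydration, so that its ratio was 0.29 under dehydration and 0.96 without stress, the lowest change of the 9 (-0.67). AT5G05960 was 0.78 higher in polysomal and 0.40 higher in non-polysomal RNA. The GPI-anchored members AT1G62790 and AT2G27130, which are held at the outer face of the plasma membrane, had polysomal differences of -0.54 and -0.28, and the proline-rich AT2G45180 of -0.35. These last values are near the 0.435 between probe sets of 1 gene.

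**Figure D5:**
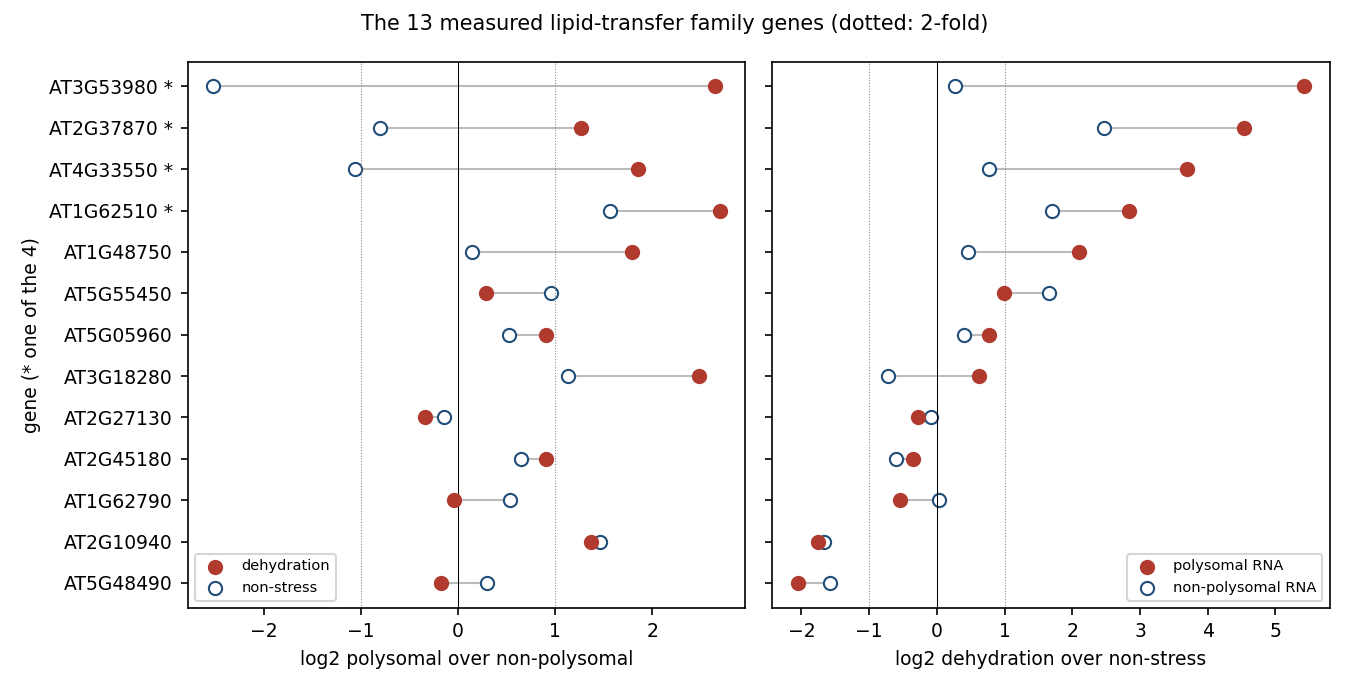
The 13 measured family genes in order of their dehydration effect in polysomal RNA, with log2 polysomal over non-polysomal signal under dehydration (filled) and non-stress (open) on the left, and log2 dehydration over non-stress signal in polysomal (filled) and non-polysomal RNA (open) on the right. The 4 genes chosen for their ratios, starred, fill the top of the order from 2.83 to at least 5.43, and AT5G48490 is lowest at -2.05.

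Genes beside the 4 on their chromosomes were read in the order of the TAIR10.1 gene table. AT1G62500, the family gene directly before AT1G62510, had signals of 67.4 in dehydration polysomal and 47.9 in dehydration non-polysomal RNA, against 63.0 in non-stress polysomal and 74.2 in non-stress non-polysomal RNA, at or below the level of the unspiked controls on 3 of the 4 arrays. AT3G53970 and AT3G53990, on either side of AT3G53980, were 1.31 and 1.36 higher in polysomal RNA under dehydration, with changes in ratio of 0.79 and 0.69. AT4G33540, before AT4G33550, was 0.71 higher in polysomal and 0.73 higher in non-polysomal RNA, a change in ratio of -0.02. Near AT2G37870, the next gene AT2G37880 did not pass the filter on dim signals and had a change of -1.81 at most, with signals of 58.5 in dehydration polysomal and 182 in dehydration non-polysomal RNA, against 94.2 in non-stress polysomal and 37.7 in non-stress non-polysomal RNA. AT2G37840 and AT2G37890, the second coding genes to either side, had changes of 0.92 and 0.63.

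From a list of 26 genes for the synthesis and export of cuticular lipids, the wax and cutin layer that limits water loss, 2 had a probe set naming 1 gene in the annotation used. Both were measured, and the 2 do not describe the list as a whole. WSD1, a wax ester synthase, had signals of 475 in dehydration polysomal and 553 in dehydration non-polysomal RNA, against 203 in non-stress polysomal and 201 in non-stress non-polysomal RNA. It was 1.22 higher under dehydration in polysomal and 1.46 higher in non-polysomal RNA, with a polysome ratio of -0.22 under dehydration and 0.01 without stress. FATB, a thioesterase that releases saturated fatty acids in the plastid, was at -0.77 in polysomal and -0.48 in non-polysomal RNA. Their changes in polysome ratio were -0.23 for WSD1 and -0.30 for FATB, beside the median of -0.09 for the 9 other family genes.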

How the data were processed

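The chips were Affymetrix ATH1, per the file headers. The deposited values are linear signal intensities of 22810 probe sets, scaled by the authors so that every array averages 500 once the outer 2% at both ends are trimmed. How probes were summarised is not given in the sources. Each array was brought to that mean exactly, signals under 69.9 (the median over arrays of percentile 25) were raised to it and log2 was taken. The 64 controls were left out, and 11373 probe sets at or above the median log2 signal (7.74) counted as measured. Groups came from the labels. Python 3.11.15, numpy 2.4.6 and pandas 2.3.3 were used, and the calculation was tested on simulated data. No test was possible with 1 array per group. No gene was annotated for 8730 probe sets and several for 503, so ranks among named loci leave these out. Of 13513 probe sets with 1 annotated gene, 13436 matched the TAIR10.1 table by gene identifier. That table served for names and gene order, and no sequences were used. Family loci were listed from general knowledge. Named genes are the 4, the 3 highest and 3 lowest measured family loci per comparison, the cuticular genes at either end, and the 3 loci nearest each gene. AT2G45180 and the chromosomal neighbours were named after their values were seen. Genes, lists and rules were chosen with earlier results of these data known. Alternatives covered scaling, lower limit, filter and probe sets per locus.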

Additional observations from a re-analysis of the deposited data

Results flagged for a closer look

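For 3 genes the polysome ratio ran in opposite directions in the conditions, each with 1 array per fraction, and the difference was not tested. In AT3G53980 the ratio was 2.64 under dehydration and at most -2.52 without stress, a difference of at least 5.17. In AT4G33550 it was 1.85 under dehydration and -1.06 without stress, a difference of 2.91. Its non-stress ratio was between -0.69 and -0.59 under the 3 other scalings, near the 0.600 between probe sets of 1 gene. In AT2G37870 it was 1.26 under dehydration and -0.81 without stress, a difference of 2.07, but its non-stress ratio was between -0.51 and -0.33 under the 3 other scalings, within the 0.600 between probe sets of 1 gene. The ratio partly chose these genes, and the hybridization batches coincide with the conditions.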

How the results depend on the processing

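Over 6 settings of scaling and lower limit, 110 of 120 values of the 4 genes moved by less than the SD between probe sets of a gene, and none of the larger ones changed sign. Part of that share was fixed in advance. A changed lower limit cannot move a difference whose signals all lie above it, as held for every value of AT1G62510 and AT2G37870. The 10 values that moved more rest on a weak non-stress polysomal signal. With the lower limit at percentile 40, AT3G53980 had a non-stress ratio of at most -1.56, a polysomal dehydration effect of at least 4.46 and a change in ratio of at least 4.20, and AT4G33550 a polysomal effect of at least 3.24. With the limit at percentile 10 or none, AT3G53980 was at -3.53, 6.43 and 6.17, from a signal under the highest unspiked control. Of 90 counts over the measured family loci, which include the 4 chosen genes, 27 differed, 15 of them by over 1.5 times. The main setting measured 13 loci. There were 14 with quantile normalization or the limit at percentile 10 or none, 49 with no filter and 8 with the filter at percentile 75. Counts under those settings are thus over another set of loci. Under dehydration 7 of 13 had a ratio at least 2-fold higher (9.06% of all probe sets did). That count was 9 with median or hybridization control scaling, 8 of 14 with quantile normalization and 4 of 8 with the filter at percentile 75. The count at least 2-fold lower was 0, or 1 of 14 with the limit at percentile 10 or none and 2 of 49 with no filter. Without stress 3 of 13 were higher (8.56% of all measured probe sets were), or 5 with median and 7 with hybridization control scaling. In the same comparison 2 were lower (11.9% of all were), or 1 under median, quantile or hybridization control scaling or the limit at percentile 40. With no filter 8 of 49 were lower, and with the filter at percentile 75 0 of 8. In polysomal RNA 5 of 13 were higher under dehydration (6.36% of all were). That count was 6 with median scaling, 6 of 14 with quantile normalization and 3 of 8 with the filter at percentile 75. A ratio at least 2-fold higher under dehydration than without stress was found for 6 of 13 (2.8% of all). It was found for 5 of 14 with quantile normalization, 4 with hybridization control scaling, 9 of 49 with no filter and 3 of 8 with the filter at percentile 75. The count with a lower ratio was 0 (1.62% of all), or 1 under hybridization control scaling. All 4 chosen genes are in the 7, 5 and 6 loci counted as higher for the dehydration ratio, the polysomal effect and the change in ratio. The 9 others gave 3, 1 and 2, so these counts over 13 do not describe the family apart from the choice. Hybridization control scaling shifted the median of all probe sets by -0.37 for the change in ratio and by 0.48 for the non-stress ratio, and its share of calls on the high side for the change was 10.6%. Each family locus has 1 probe set, so averaging probe sets changed nothing. No paired analysis was possible because each group has 1 array.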
